A study of Mus musculus with 39 samples.

Results

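The DnaJ family, also called HSP40 or J-domain proteins, was followed through 45 mouse genes in testis and gubernaculum. Members were all genes whose symbol reads Dnaja, Dnajb or Dnajc followed by a number, joined by Ensembl identifier between the 2 deposited count tables. The rule reads symbols only. They were 45 of the 21561 genes that both tables hold. The second table also had rows for the pseudogenes Dnaja1-ps and Dnajc19-ps and a second Dnajc19 identifier, which brought its matching rows to 48, and these could not be compared between tables. The libraries came from male C57BL/6J mice. Wild-type (WT) mice carried mouse INSL3, the Leydig cell hormone that acts on the gubernaculum, the cord that guides testicular descent. Knock-in (KI) mice were homozygous for a minke whale INSL3 coding sequence in place of the mouse one at the native locus, obtained by homologous recombination in embryonic stem cells with the neo cassette later removed by Cre. Knockout (KO) mice were labelled as lacking INSL3, and how that allele was made is not given in the sources used here. Gubernaculum was sampled at postnatal day 8 (P8) in WT, KI and KO and at P23 in WT and KI, and testis at P8 and P23 in WT, KI and KO and at P40 in WT and KI. Each of these 13 groups had 3 biological replicates, 39 libraries in all, and replicate numbers are used below only as names.

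Totals ran from 29861447 to 45260372 counts per library, and levels are given as CPM, counts scaled to library size with TMM factors over all 39 libraries. The first table held all WT and KI libraries except WT P23 testis, and the second held the KO libraries and WT P23 testis. Comparisons of KO with WT at P8 and of KI with WT or KO in P23 testis therefore set one table against the other, and in these the table and the genotype cannot be told apart. The same holds for age wherever WT or KO testis at P23 is set against first-table testis of another age. Insl3 had 2922, 3524 and 2722 counts in WT P8 testis and 33, 15 and 26 in KI P8 testis, but 906, 804 and 613 in the P8 testis libraries labelled KO, which goes against that label. At P23 the KO testis libraries had 0, 5 and 0 Insl3 counts. Several libraries stood apart from their group in cell type markers, namely KI P23 testis replicate 3, KI P40 testis replicate 1, KI P8 testis replicate 2, KI P23 gubernaculum replicate 2, WT P23 gubernaculum replicate 3, with epididymal markers, and WT P8 gubernaculum replicate 1, with germ cell markers. All samples are bulk tissue, in which fewer cells of a type and less RNA per cell cannot be told apart.

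J-domain proteins are the partners that give HSP70 chaperones their tasks. The J domain docks on HSP70 and speeds its ATP hydrolysis, which locks the chaperone onto a client protein, and nucleotide exchange factors then release it. Class A and B members bring unfolded clients themselves, whereas class C members place HSP70 at a site such as the ribosome, the mitochondrial import motor, the endoplasmic reticulum (ER) membrane or clathrin-coated vesicles. Spermatogenic cells carry their own HSP70 forms, and several DnaJ genes are known mainly from the testis.

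The 45 members were grouped by known role. A germ-line list held 6 genes, Dnajb3, Dnajb7, Dnajb8, Dnajb13, Dnajc5b and Dnajc5g. The other 39, called widely expressed here by their known roles and not by level, were 9 cytosolic genes, 11 ER genes, 7 mitochondrial genes, 6 genes of the ribosome and nucleus, 3 vesicle genes and 3 others. The cytosolic genes were class A and B members together with the class C member Dnajc7. Among the others, Dnajc22 had at most 1.25 CPM as a group mean. The germ-line genes differ in structure. Dnajb3 (ENSMUSG00000081984, GRCm38 chr1:88204732-88205782, minus strand) is a single coding exon within introns of the Ugt1a genes on the opposite strand. Dnajb7 (chr15:81406926-81408299, minus strand) is a single exon within Xpnpep3, again on the opposite strand, and Dnajb8 (chr6:88222268-88254415, plus strand) has its coding sequence in 1 exon. Dnajb13, whose product is a part of the sperm axoneme's radial spokes, has 8 coding exons at chr7:100501716-100514960 on the minus strand. Dnajc5b (chr3:19508595-19610862) and Dnajc5g (chr5:31106285-31112526), relatives of the cysteine string protein Dnajc5, have 4 coding exons each on the plus strand. Some members share exonic bases with a gene on the other strand, and the strand setting of the counting is not given in the sources used here, so such reads cannot be told apart. This holds for 37.2% of the exonic bases of Dnajb8, shared with 1700031F10Rik, for 44.1% of Dnaja4, shared with Wdr61, and for 11.2% of Dnajb13, shared with Ucp2.

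Promoter windows from RefSeq, from 250 bases before to 50 after a gene's start, were found for 37 of the 45 members. Dnajc2, Dnajc5, Dnajc5b, Dnajc11, Dnajc12, Dnajc18, Dnajc22 and Dnajc30 had no entry. The windows of 3 genes that the testis results turn on are shown, read 5′ to 3′ on the gene's own strand, because CREB-family sites and heat shock elements are the classical promoter sites of spermatid genes and of inducible DnaJ genes. Capitals mark CGTCA, the reverse complement of the half-site TGACG, in Dnajb3, the full site TGACGTCA in Dnajc27, and GAANNTTC in Dnaja4.
Dnajb3: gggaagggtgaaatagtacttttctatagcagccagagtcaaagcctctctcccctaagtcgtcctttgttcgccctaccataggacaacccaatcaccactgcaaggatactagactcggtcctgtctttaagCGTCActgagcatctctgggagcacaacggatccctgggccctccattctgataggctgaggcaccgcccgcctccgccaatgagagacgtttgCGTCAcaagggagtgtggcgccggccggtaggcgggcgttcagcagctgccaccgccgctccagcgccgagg
Dnajc27: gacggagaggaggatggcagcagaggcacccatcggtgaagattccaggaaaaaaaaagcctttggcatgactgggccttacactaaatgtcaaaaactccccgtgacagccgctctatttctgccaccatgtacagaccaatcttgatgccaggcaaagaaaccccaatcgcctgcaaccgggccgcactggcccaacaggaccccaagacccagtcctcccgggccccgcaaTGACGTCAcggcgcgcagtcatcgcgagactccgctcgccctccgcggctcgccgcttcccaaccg
Dnaja4: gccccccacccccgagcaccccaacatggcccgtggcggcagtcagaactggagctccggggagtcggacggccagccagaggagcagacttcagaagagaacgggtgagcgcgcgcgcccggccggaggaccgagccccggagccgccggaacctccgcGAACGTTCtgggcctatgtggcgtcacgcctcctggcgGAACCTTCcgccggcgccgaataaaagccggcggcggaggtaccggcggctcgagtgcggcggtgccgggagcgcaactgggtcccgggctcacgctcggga
The Dnajb3 window (GRCm38.p6 chr1:88205699-88205998, minus strand, 59% GC) held CGTCA beginning 116 and 22 bases before the start. The Dnajc27 window (chr12:4082324-4082623, plus strand, 60% GC) held the full site beginning 16 bases before the start, and no other member had it. The Dnaja4 window (chr9:54699309-54699608, plus strand, 72.7% GC) held GAANNTTC beginning 90 and 52 bases before the start, and a second Dnaja4 window from another start held none. Over the windows of 27025 gene symbols, searched on both strands, TGACG occurred in 23%, TGACGTCA, which contains it, in 2.03% and GAANNTTC in 9.04%. Among members, 21 of 37 held TGACG, among them Dnajb3 and Dnajc5g of the 5 germ-line genes with a window, and 5 of 37 held GAANNTTC (Dnaja1, Dnaja4, Dnajb6, Dnajc27 and Dnajc5g). The inverted form TTCNNGAA occurred in 9.6% of all windows and in those of Dnajb4, Dnajb6 and Dnajc10. These are matches of letters only.

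The family as a whole was far more abundant in WT testis from P23 on than in any other tissue or age. The 45 members together reached 8958, 9155 and 9210 CPM in WT P23 testis and 7847, 7797 and 7015 CPM in WT P40 testis, against 2208, 2182 and 2129 CPM in WT P8 testis. KI P40 testis held 3540, 2437 and 2397 CPM, and KO P23 testis 2689, 2693 and 2722 CPM. KI P23 testis lay between, at 5437, 5369 and 3517 CPM, with replicate 3 the lowest. In gubernaculum the sum stayed between 1941 and 2997 CPM in all 15 libraries. The rise was not confined to the germ-line list, which made up 28.1% of the family's summed CPM in WT P23 testis and 24.06% in WT P40 testis. Without the germ-line genes the sum was 2167 ± 40.7 CPM (SD, n = 3) in WT P8 testis and 5736 ± 270 CPM (SD, n = 3) in WT P40 testis. Of the 45 members, 21 had their highest group mean in WT P23 testis and 4 in WT P40 testis.

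**Figure D1:**
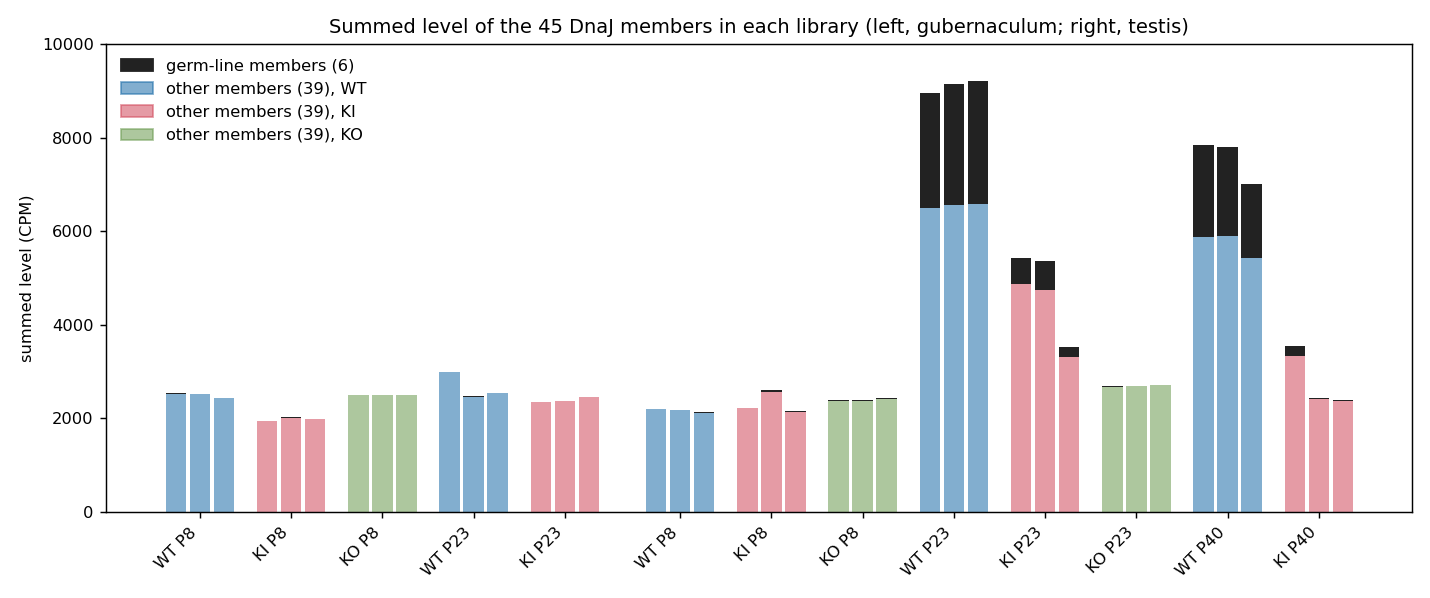
Summed CPM of the DnaJ members in each library, with the germ-line list stacked on the other members (each bar, 1 library; y axis from 0). WT testis at P23 and P40 stands above every other group, and KI testis at P40 sits near the P8 level with replicate 1 the highest of its 3 libraries.

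Which member was most abundant per transcript length changed with age. By the deposited FPKM within the first table, Dnaja2 led in WT P8 testis at 96.2 FPKM, followed by Dnajc8, a spliceosome-associated member, at 87.5 FPKM and Dnaja1 at 66.8 FPKM. In WT P40 testis Dnajb3 led at 509.6 FPKM, followed by Dnajb8 at 231.2 and Dnajb6 at 218.0 FPKM. In KI P40 testis the order was led by Dnajc8 at 89.4 and Dnajb6 at 83.2 FPKM, with Dnajb3 at 47.3 FPKM. In WT P8 gubernaculum Dnaja2 was first at 64.9 FPKM, and in WT P23 gubernaculum Dnajb4 was first at 70.2 FPKM.

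Members of the germ-line list were low at P8, with KI testis replicate 2 the highest library, and abundant in WT testis at P23 and P40. Dnajb3 rose from 4.29, 3.27 and 4.06 CPM in WT P8 testis to 978, 1148 and 1162 CPM at P23 and 851, 827 and 677 CPM at P40. In KI testis it stood at 314, 323 and 118 CPM at P23 and at 114, 14.2 and 16.9 CPM at P40, and in KO P23 testis at 4.58, 3.64 and 5.16 CPM. The WT and KI libraries did not overlap at either age, and KO P23 testis was at the P8 level. Dnajb8, which encodes a suppressor of protein aggregation, had 2, 3 and 0 counts in WT P8 testis and 8769, 9599 and 8735 counts in WT P40 testis. KI P40 testis had 28, 6 and 5 Dnajb8 counts, and KO P23 testis 5, 0 and 4. At P23 Dnajb8 reached 416, 428 and 434 CPM in WT and 17.0, 15.8 and 1.2 CPM in KI. Dnajb7 showed the same order, with 217, 205 and 205 CPM in WT P23 testis, 17.4, 16.7 and 1.46 CPM in KI P23 testis and 14, 1 and 10 counts in KO P23 testis. At P40 it was at 114, 114 and 108 CPM in WT and at 1.14, 0.703 and 0.404 CPM in KI.

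The remaining germ-line genes were also high in WT only from P23. Dnajc5b had 2, 0 and 0 counts in WT P8 testis and 7817, 7113 and 7526 counts in WT P23 testis, against 802, 1042 and 192 in KI and 4, 18 and 7 in KO. By P40 it had 4127, 4509 and 4178 counts in WT and 67, 11 and 16 in KI. Dnajb13 was at 311, 311 and 318 CPM in WT P23 testis, 83.1, 110 and 31.6 CPM in KI and 0.889, 1.52 and 1.28 CPM in KO. At P40 its WT libraries had 275, 260 and 218 CPM and its KI libraries 28.7, 5.14 and 6.18 CPM. Dnajc5g was at 120, 120 and 46.3 CPM in KI P23 testis, 2.21, 1.24 and 1.87 CPM in KO and 227, 216 and 218 CPM in WT. At P40 it was at 54.2, 6.64 and 7.44 CPM in KI and 185, 171 and 174 CPM in WT. In each of the 6 genes KI P23 replicate 3 was the lowest KI library at P23 and KI P40 replicate 1 the highest at P40. In gubernaculum the list summed to at most 17.3 CPM in any library, that of WT P8 replicate 1.

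**Figure D2:**
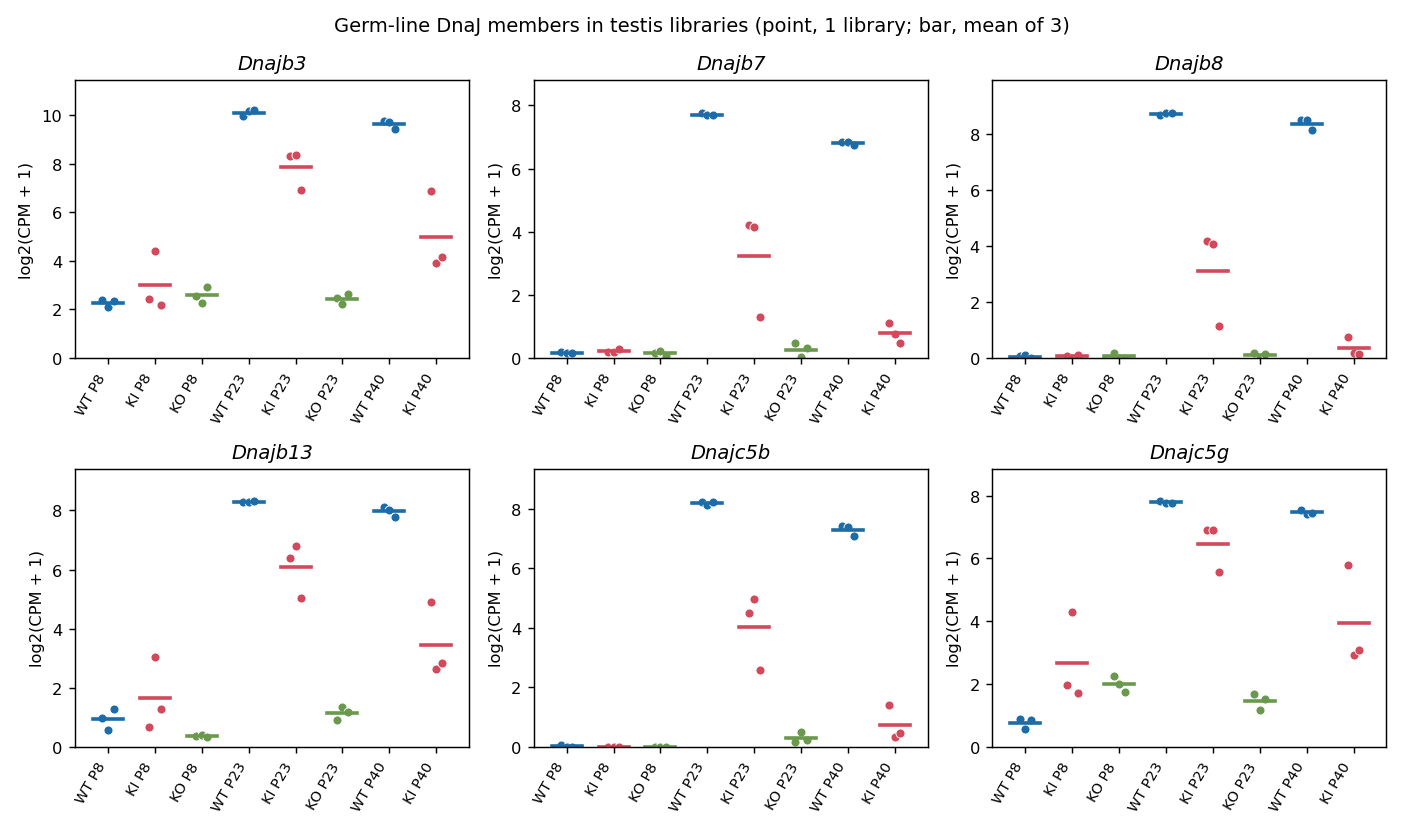
The 6 germ-line members in testis, as log2(CPM + 1) (points, libraries; bars, means of 3 libraries). All 6 are high in WT at P23 and P40 and low at P8 and in KO at P23. KI P8 replicate 2 lies above the other P8 libraries in Dnajb3, Dnajb13 and Dnajc5g, and KI P40 replicate 1 above the other KI P40 libraries.

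Maturation of WT testis from P8 to P40 set the background against which the genotypes were read. Calls below are genes with an adjusted p below 0.01 (edgeR quasi-likelihood test, Benjamini-Hochberg) and a change of 2-fold or more, and the p-values measure the spread between the 3 replicates of each group. From P8 to P40, 23 of 45 members were called higher, where 31.9% of all tested genes were, and 1 was called lower, where 27.8% were. The median log2 fold change of the members was 1.13, against -0.03 over all genes. All 6 germ-line genes rose. Dnajb3 did so by 7.65 ± 0.17 (log2, SE; adjusted p = 2.51e-08), and for Dnajb8 and Dnajc5b no fold is given because every WT P8 library held 3 counts or fewer. Dnajb7, Dnajb8 and Dnajc5b, which count among the 23, were under the low-count filter at P8. They entered this fit through the P40 libraries alone, so only a rise could be seen. Of the 9 cytosolic genes 7 rose too, Dnajc7 among them. Dnajb2, a neuronal co-chaperone that binds ubiquitylated clients, went from 16.3, 15.9 and 14.6 CPM to 322, 317 and 290 CPM, and Dnaja4, a heat-inducible member, from 15.1, 14.5 and 17.8 CPM to 314, 314 and 267 CPM. Dnajb1, the classical stress-inducible HSP40, went from 68.2, 74.1 and 70.0 CPM to 547, 533 and 477 CPM. For each of these the 2 ages did not overlap. Dnajc27, a small GTPase with a J domain, rose 14.8-fold, Dnajb14, an ER membrane member, 10.3-fold, and Dnajc4 8.14-fold. Of the other roles, 3 of 11 ER, 4 of 7 mitochondrial and 2 of 6 ribosome and nucleus genes rose. Dnajc5, the cysteine string protein of secretory vesicles, was the single member called lower, from 150, 152 and 154 CPM to 54.8, 63.2 and 66.3 CPM. Scaling by library size alone and limma each called 5 lower, and 5 were lower at an unadjusted p under 0.05. Of all genes, library-size scaling called 6900 of 16892 lower. Over the same ages the summed FPKM of 8 spermatid markers went from 3.2 to 3.8 up to 9484 to 10882, with all 8 higher in every P40 library, and that of 8 spermatocyte markers from 20.4 to 45.6 up to 2541 to 2838. Their part in the members' rise was not tested.

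In KI testis at P40, all but 1 of the germ-line members and nearly as large a share of the cytosolic ones were called lower than in WT. With P40 KI set against P40 WT, both in the first table, 23 of 45 members were called lower, where 22.1% of all genes were, and 2 were called higher, where 25.6% were. The members' median log2 fold change was -1.11, against 0.09 over all genes. Among germ-line genes 5 of 6 were called lower. Dnajb8 passed the low-count filter here only through the WT libraries, so only a fall could be seen. Dnajc5b fell by 7.66 ± 0.76 on the log2 scale (SE), Dnajb7 by 7.19 ± 0.38 and Dnajb13 by 4.21 ± 0.74. Dnajb8 was 1023-fold (adjusted p = 0.00027) and Dnajb3 16.0-fold lower (adjusted p = 0.00754). Dnajc5g missed the threshold at -2.94 ± 0.87 (log2, SE; adjusted p = 0.0204), and it passed without KI replicate 1 (log2 fold change -4.60, adjusted p = 1.47e-08). Without that library the log2 fold changes of Dnajb3, Dnajb8, Dnajb13 and Dnajc5b were -5.61, -11.22, -5.42 and -8.86.

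Widely expressed members were called lower as well, 18 of 39. Of the 9 cytosolic genes 7 were, Dnajc7 among them. Dnaja4 was at 314, 314 and 267 CPM in WT and 23.9, 17.8 and 19.8 CPM in KI, a log2 fold change of -3.83 ± 0.17 (SE; adjusted p = 4.95e-05). KI replicate 1 lay close to the other KI libraries in this gene. Reads of Wdr61, which overlaps Dnaja4 on the other strand, were at 30.4, 29.1 and 31.8 CPM in WT and 39.4, 32.9 and 41.6 CPM in KI. Dnajb1 was at 547, 533 and 477 CPM in WT and 207, 76.0 and 79.3 CPM in KI, and Dnajb6, a suppressor of polyglutamine aggregation, at 699, 708 and 640 CPM in WT and 276, 103 and 110 CPM in KI. Dnajc27 was at 292, 299 and 271 CPM in WT and 89.9, 24.1 and 25.4 CPM in KI. In these 3 genes KI replicate 1 lay apart from the other KI libraries, toward WT, yet below every WT library. Without it the log2 fold changes went from -2.08 to -2.69 for Dnajb1, from -2.04 to -2.62 for Dnajb6, from -2.61 to -3.49 for Dnajc27 and from -1.97 to -2.61 for Dnajb2. Dnajb14 fell by 2.24 ± 0.27, Dnajb4 by 2.39 ± 0.22 and Dnajc6 (auxilin, which uncoats clathrin vesicles) by 2.23 ± 0.25 on the log2 scale (SE). The 2 members called higher were Dnajc12 and Dnajc5. Dnajc12, a partner of the aromatic amino acid hydroxylases, went from 4.07, 4.35 and 4.33 CPM in WT to 12.7, 15.0 and 15.2 CPM in KI (3.45-fold, adjusted p = 0.00031). Dnajc5 went from 54.8, 63.2 and 66.3 CPM to 117, 158 and 156 CPM (2.40-fold, adjusted p = 0.00109), where WT P8 testis had 150 to 154 CPM.

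The same libraries differed in their cell markers. In WT P40 testis the 8 spermatid markers summed to 9484 to 10882 FPKM and in KI to 51.1, 11.5 and 12.2 FPKM, with all 8 below every WT library and none at 0. The 8 spermatocyte markers summed to 2541 to 2838 FPKM in WT and 1398, 266 and 254 FPKM in KI, with 4 of 8 below every WT library. All 8 Sertoli markers were above every WT library, at 2657 to 4239 FPKM against 583 to 710. The part of these shifts in the members' changes was not tested. Leaving out KI replicate 1 gave 24 members lower and 2 higher. The count was smaller when a library was taken from the WT group or the tighter KI pair, with 10, 11 and 14 lower without WT replicates 1, 2 and 3 and 13 and 14 without KI replicates 2 and 3. Under scaling by library size alone the median log2 fold change over all genes was 0.70 in place of 0.09. The member calls were then 13 lower and 9 higher, where 2458 and 6583 of 16677 genes were, so the changes above stand relative to the typical gene.

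**Figure D3:**
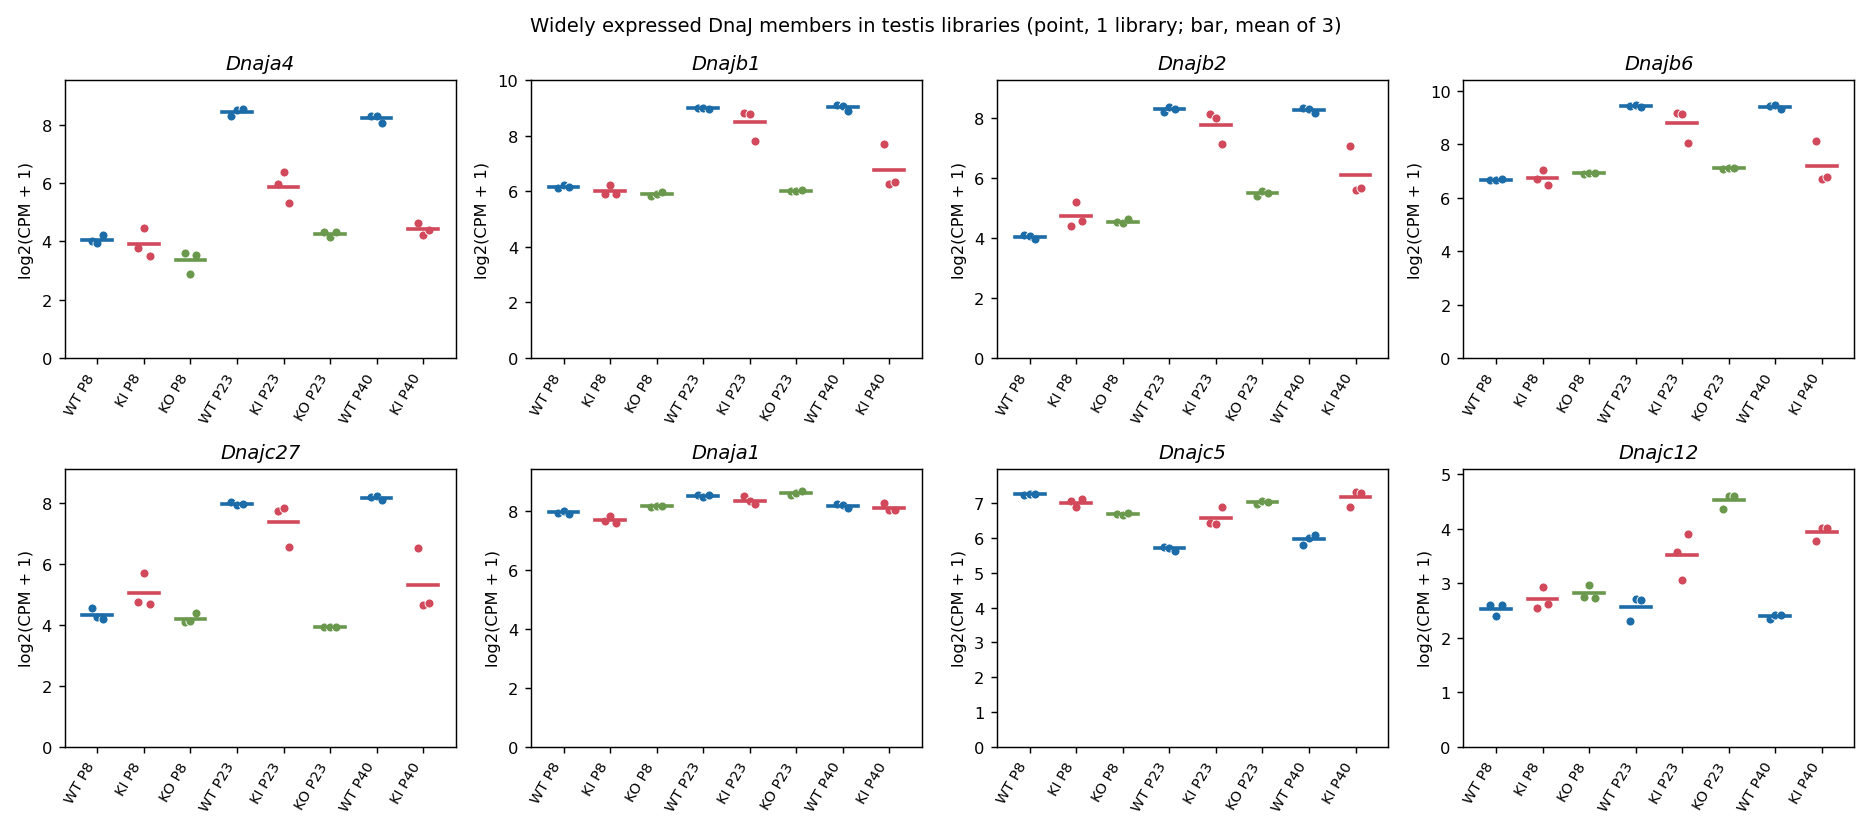
Widely expressed members in testis, as log2(CPM + 1) (points, libraries; bars, means of 3 libraries; y axes from 0). Dnaja4, Dnajb1, Dnajb2, Dnajb6 and Dnajc27 are high in WT at P23 and P40 and low in KO at P23, Dnaja1 is near level in all groups, and Dnajc5 and Dnajc12 are lower in WT at P40 than in KI.

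The KI effect changed with age. The difference between the KI effect at P40 and that at P8, tested as an interaction, was called lower for 22 of 45 members, where 22.5% of all genes were, and higher for 2, where 23.2% were. Dnajb7 and Dnajb8 were among the 22 although they were under the low-count filter at P8 and entered the fit through P40 libraries. Dnaja4 had an interaction of -3.81 ± 0.32 (log2, SE), with WT and KI at 15.8 and 14.7 CPM at P8 and at 298 and 20.5 CPM at P40. The 2 called higher were Dnajc12 and Dnajc5, at 1.48 ± 0.24 and 1.41 ± 0.21.

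At P23 the libraries labelled KO were compared with WT within the second table. Of 45 members 21 were called lower, where 33.4% of all genes were, and 2 higher, where 31.1% were. All 6 germ-line genes were lower, Dnajb3 by 7.95 ± 0.12 and Dnajb13 by 7.98 ± 0.11 on the log2 scale (SE). Dnajb7, Dnajb8 and Dnajc5b passed the low-count filter here only through the WT libraries. Of the 9 cytosolic genes 6 were lower. Dnaja4 was at 318, 359 and 373 CPM in WT and 19.1, 16.6 and 19.0 CPM in KO, a fall of 4.27 ± 0.08 (log2, SE). Dnajb1 was at 510, 510 and 494 CPM in WT and 63.6, 63.6 and 64.9 CPM in KO, close to the 68.2 to 74.1 CPM of WT P8 testis. Among the other roles Dnajc27 was lower by 4.13 ± 0.05, Dnajb14 by 3.41 ± 0.06, Dnajc4 by 3.15 ± 0.08 and Dnajc2, a ribosome-associated member, by 2.91 ± 0.05 (log2, SE). The 2 that were higher were again Dnajc12, at 3.92, 5.53 and 5.43 CPM in WT and 19.5, 23.4 and 23.2 CPM in KO, and Dnajc5, at 52.8, 51.7 and 48.6 CPM in WT and 126, 131 and 130 CPM in KO. Spermatid markers summed to 13085 to 15431 FPKM in WT and 12.7 to 15.3 FPKM in KO, and spermatocyte markers to 3708 to 3817 FPKM in WT and 92.4 to 97.3 FPKM in KO. All 8 of each list were below every WT library, and their part in the members' change was not tested. With scaling by library size alone the median log2 fold change over all genes was 0.69 in place of 0.06. The member calls were then 20 lower and 7 higher, where 4537 and 7188 of 16732 genes were.

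Members differed in how far KI testis at P23 stood from WT. Against WT, across the 2 tables, 13 of 44 tested members were lower, where 11.8% of all genes were, and none was higher, where 8.81% were, although DESeq2 and limma each called 1 higher and 7 were higher at an unadjusted p under 0.05. Scaling by library size alone gave 11 lower and 4 higher, where 1450 and 3607 of 16603 genes were, with a median log2 fold change of 0.55 over all genes. Dnajb8 fell by 5.26 ± 0.90, Dnajb7 by 4.17 ± 0.82 and Dnajc5b by 3.97 ± 0.61 (log2, SE), Dnajb3 by 2.14 ± 0.37 and Dnajb13 by 2.08 ± 0.41. Of the widely expressed members Dnaja4 went from 318, 359 and 373 CPM in WT to 61.0, 81.8 and 38.5 CPM, and Dnajb4 from 385, 354 and 358 CPM to 101, 113 and 50.2 CPM. Dnajc9, a histone chaperone with a J domain, went from 102, 112 and 114 CPM to 27.4, 28.9 and 22.1 CPM. For these 3 genes no KI library overlapped WT. The remaining lower calls were Dnajb14, Dnajc6, Dnajc15, Dnajc18 and Dnajc21. By FPKM, Dnajb4 and Dnajc15 in the libraries labelled KO at P8 lay above every first-table P8 library in both tissues. The gene length of Dnajc15 implied by FPKM differed between the tables by -2.72 (log2, second minus first). The part of these offsets in the 2 calls was not tested.

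Some members that were low in KO P23 testis and uncalled here, such as Dnajb1, Dnajb6, Dnajc27 and Dnajc28, were nearly at the WT level in 2 of the 3 KI libraries. Dnajc5g, also low in KO and uncalled in KI, stood further below WT in all KI libraries, as given above. Dnajb1 was at 455, 442 and 226 CPM in KI and 510, 510 and 494 CPM in WT, a difference of -0.45 ± 0.26 (log2, SE; adjusted p = 0.189). Dnajb6 was at 582, 563 and 267 CPM in KI and 692, 718 and 681 CPM in WT, and Dnajc27 at 214, 226 and 92.8 CPM in KI and 258, 241 and 247 CPM in WT. Dnajc28, a mitochondrial-type member, overlapped WT, with 58.1, 56.1 and 31.9 CPM in KI and 55.9, 53.3 and 53.4 CPM in WT. In each of these genes replicate 3 was the low KI library. The same library had the lowest spermatocyte marker sum of the group, 1445 FPKM against 2523 and 2529 FPKM in the other KI libraries and 3708 to 3817 FPKM in WT. Spermatid markers were at 524, 704 and 53.9 FPKM in KI P23 testis and at 13085 to 15431 FPKM in WT. Their part in the differences between members was not tested.

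The 13 calls depended on single libraries. Without WT replicate 1, 2 or 3 they came to 2, 1 and 1, and without KI replicate 1, 2 or 3 to 1, 12 and 12. Limma on log2(FPKM + 1) put Dnajb14 at 0.38 against -1.57 ± 0.23 (SE) from the counts. The cause of that turn was not tested. Compared with KO instead, 18 of 44 members were higher in KI, where 25.2% of all genes were, and 1 was lower, where 13.0% were. Dnajb13 was 62.1-fold, Dnajb3 58.0-fold, Dnajc5g 55.3-fold and Dnajc27 12.8-fold higher in KI than in KO. Dnajb7, Dnajb8 and Dnajc5b were called higher too, although they passed the low-count filter only through KI. The largest log2 fold change of a germ-line gene, 7.21, was among these genes, for which only a rise could be seen. The member that was lower, Dnajc19 of the mitochondrial import motor, had 8.07, 7.71 and 9.20 CPM in KI and 17.9, 19.0 and 17.0 CPM in KO. By FPKM, Dnajc19 in the KO P8 libraries also lay above every first-table P8 library in both tissues. Its gene length implied by FPKM differed between the tables by -0.32 (log2, second minus first), and the part of this was not tested. The 18 became 11 without KO replicate 2, and Dnajc19 lost its call without KI replicate 1 or any KO library.

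At P8, before the testis members rose, few members were called between genotypes in testis, and few of all genes were. In KI P8 testis 1 of 42 tested members was called higher, where 3.03% of all genes were, and none lower, where 3.25% were. DESeq2 and limma gave no lower call either, and 5 members were lower at an unadjusted p under 0.05. Dnajc28 was at 8.13, 8.07 and 5.72 CPM in WT and 15.5, 15.8 and 13.9 CPM in KI (2.09-fold, adjusted p = 0.009), a call that was lost when any library was left out. In the libraries labelled KO, 3 of 41 members were higher across the tables, where 5.44% of all genes were, and none was lower, where 8.37% were, nor by DESeq2 or limma, with 8 lower at an unadjusted p under 0.05. Dnajc21, a ribosome biogenesis factor, was at 29.5, 25.1 and 28.2 CPM in WT and 62.0, 59.6 and 59.8 CPM in the libraries labelled KO, and Dnajc24, of the diphthamide pathway, at 10.6, 8.85 and 7.56 CPM in WT and 19.3, 18.6 and 18.0 CPM in the libraries labelled KO. By FPKM, Dnajc24 was above every first-table P8 library in both tissues. Dnajc5g was at 0.828, 0.464 and 0.817 CPM in WT and 3.81, 3.01 and 2.32 CPM in the libraries labelled KO.

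KI P8 testis replicate 2 carried more germ-line signal than any other P8 library. Dnajb3 was at 4.38, 19.9 and 3.59 CPM in the KI libraries, Dnajb13 at 0.581, 7.21 and 1.40 CPM and Dnajc5g at 2.93, 18.4 and 2.28 CPM. None of the 3 was called against WT, and Dnajc5g stood at 3.50 ± 0.90 (log2, SE; adjusted p = 0.0267). The 8 spermatocyte markers summed to 294, 939 and 235 FPKM in these libraries and to 20.4 to 45.6 FPKM in WT P8 testis, with 6 of 8 above every WT library. In the P8 testis libraries labelled KO they summed to 321 to 328 FPKM. Whether they account for these values was not tested.

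Heat-inducible and unfolded protein response members were followed in every genotype comparison of testis. Of the 4 heat-inducible genes, Dnaja4, Dnajb1 and Dnajb4 were lower in KI at P40 and in KO at P23, whereas Dnaja1 was not called in any genotype comparison of testis. Dnaja1 was at 298, 294 and 274 CPM in WT P40 testis and 308, 261 and 257 CPM in KI, a difference of -0.03 ± 0.14 (log2, SE), with the sign turning to 0.58 under scaling by library size alone. Dnajb9, an ER luminal member induced by unfolded proteins, was lower in KI P40 testis at -1.02 ± 0.13 and stood at -0.93 ± 0.12 in KI P23 testis and -0.88 ± 0.05 in KO P23 testis (log2, SE), under the 2-fold threshold. The ER members Dnajb11, Dnajc3 and Dnajc10 stayed between -0.69 and 0.63 (log2) in the comparisons of KI or KO testis with WT, uncalled in all 5. At P40 all 3 turned positive under scaling by library size alone, as did Dnajc3 and Dnajc10 in KO at P23.

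**Figure D4:**
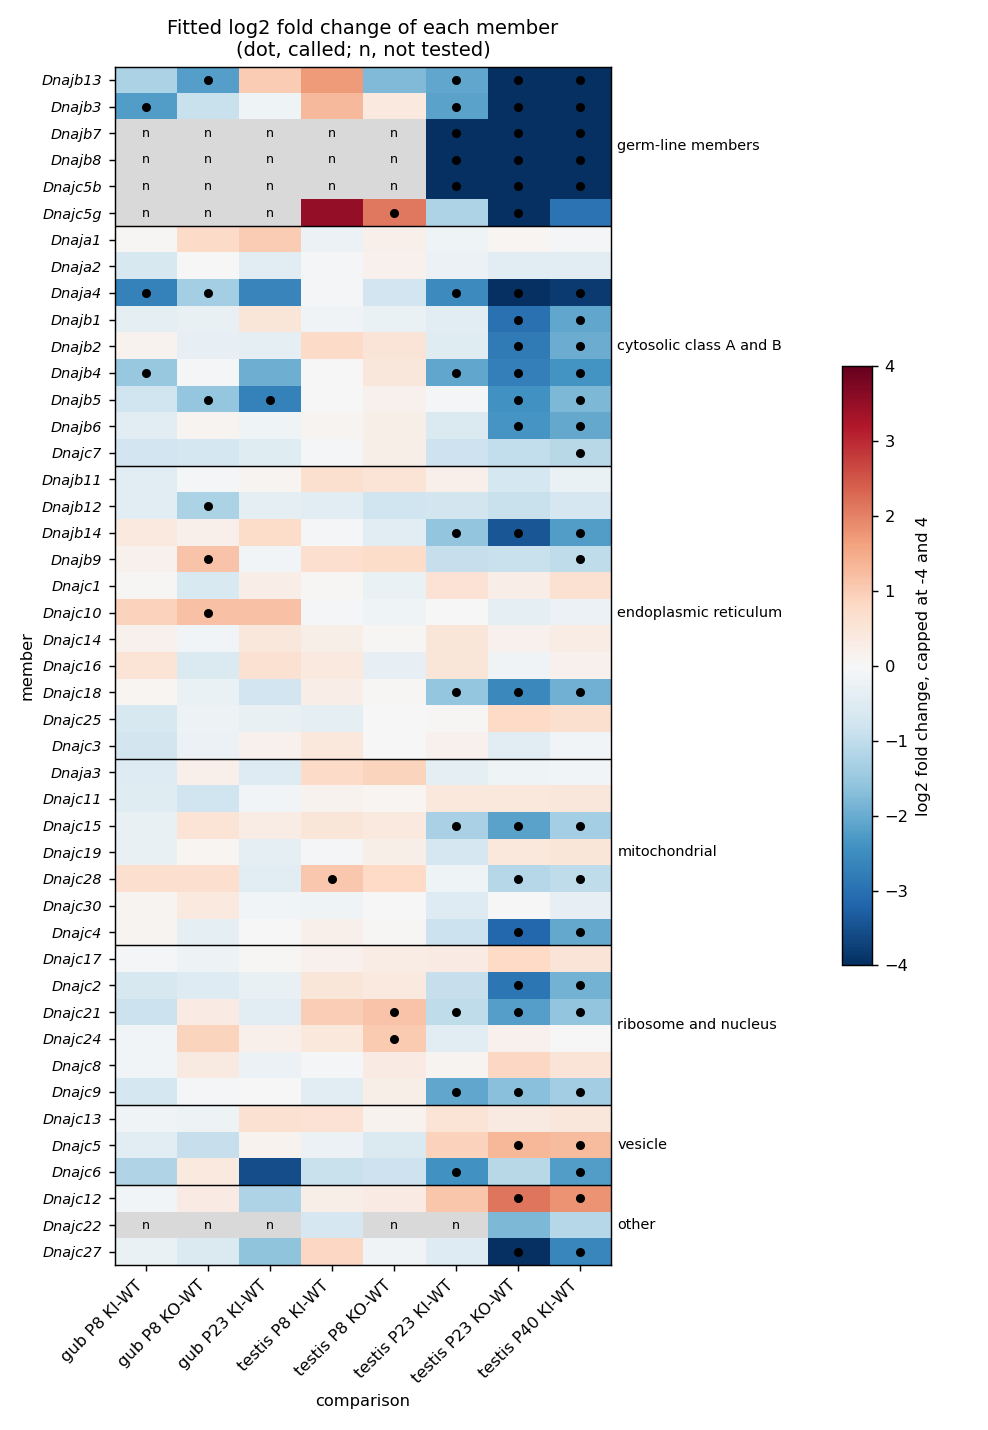
Log2 fold changes of the 45 members in 8 genotype comparisons, members ordered by role (colour scale capped at -4 and 4; dot, called; n, not tested). Calls are dense in the P23 KO and P40 KI testis columns and sparse at P8 and in gubernaculum.

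In gubernaculum fewer members passed the test than in mature testis, and the cytosolic Dnaja4, Dnajb4 and Dnajb5 made up most of the lower calls. At P8 the KI set against WT had 3 of 40 tested members lower, where 9.7% of all genes were, and none higher, where 14.4% were, although limma and scaling by library size alone each gave 1 higher, DESeq2 gave none, and 3 were higher at an unadjusted p under 0.05. Dnaja4 was at 97.8, 93.1 and 86.3 CPM in WT and 12.2, 15.3 and 14.2 CPM in KI (6.56-fold lower, adjusted p = 1.42e-06). Dnajb4, a heat-inducible class B member, was at 137, 134 and 129 CPM in WT and 47.2, 48.7 and 42.9 CPM in KI (2.85-fold lower). Neither gene's groups overlapped. The third, Dnajb3, was at 11.1, 4.71 and 2.37 CPM in WT and 1.2, 1.6 and 1.0 CPM in KI, and it lost its call without WT replicate 1 (log2 fold change -1.47, adjusted p = 0.0213). That library had 68.3 FPKM of spermatid markers against 16.6 and 1.6 FPKM in the other WT libraries.

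The KO gubernaculum at P8, in the other table had members called in both directions. Of 40 tested members 4 were lower, where 15.2% of all genes were, and 2 higher, where 15.5% were. Dnaja4 was at 33.7, 38.5 and 37.2 CPM, between KI and WT. Dnajb5, another class B member, was at 91.3, 85.2 and 82.4 CPM in WT, 47.1, 50.9 and 49.2 CPM in KI and 28.1, 30.9 and 29.7 CPM in KO, and against WT it was called in KO (log2 fold change -1.55 ± 0.08, SE) and not in KI, while KI and KO were not tested against each other. Dnajb4 stayed at 126, 122 and 132 CPM in KO. The ER members Dnajb9 and Dnajc10 were higher in KO, Dnajb9 at 68.0, 62.3 and 63.3 CPM against 31.9, 28.3 and 27.9 CPM in WT, and Dnajc10, an ER disulfide reductase, at 280, 266 and 303 CPM against 123, 125 and 130 CPM. A high Dnajc10 level was not particular to KO, and its highest group mean was 286.5 CPM, in KI P23 gubernaculum. Dnajb12, which works with HSC70 at the ER membrane, was lower at 24.1, 22.9 and 18.8 CPM against 50.8, 54.7 and 52.7 CPM. By FPKM, Dnajb4 and Dnajb9 were above and Dnajb12 below every first-table P8 library in both tissues. The gene length implied by FPKM differed between the tables for Dnajb9, by -0.33 (log2, second minus first). The part of this in its FPKM offset was not tested. Dnajb13 was also called lower, on 8, 14 and 13 counts in KO against 60, 43 and 20 in WT.

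At P23 in gubernaculum 1 of 40 members was called lower in KI, where 2.35% of all genes were, and none higher, where 0.212% were, although the fit of all groups together gave 1 higher. DESeq2 and limma gave none higher, and 6 were higher at an unadjusted p under 0.05. Dnajb5 was at 244, 149 and 170 CPM in WT and 36.9, 21.4 and 27.4 CPM in KI (6.58-fold lower, adjusted p = 0.00701), a call that was lost when any library but KI replicate 2 was left out. Dnaja4 was at 246, 118 and 124 CPM in WT and 26.6, 36.6 and 16.4 CPM in KI, and Dnajb4 at 303, 189 and 180 CPM in WT and 45.7, 85.5 and 44.2 CPM in KI. The WT and KI libraries of both genes did not overlap, yet their adjusted p-values were 0.0191 and 0.0241. DESeq2 and the fit of all groups together called 5 members lower, both times Dnaja4, Dnajb4, Dnajb5, Dnajc6 and Dnajc27.

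Skeletal muscle markers differed between the same groups. The 9 markers summed to 15966 to 17069 FPKM in WT P8 gubernaculum, 558 to 986 FPKM in KI and 5180 to 5707 FPKM in KO, and at P23 to 34536 to 53185 FPKM in WT and 650, 11.5 and 484 FPKM in KI. All 9 were below every WT library in KI at both ages, and 8 of 9 in KO. Dnajb4 had 126, 122 and 132 CPM in KO P8, against 129 to 137 CPM in WT. Adipocyte markers moved the other way, from 85.5 to 96.1 FPKM in WT P8 to 719 to 960 FPKM in KI and 1653 to 1891 FPKM in KO, and at P23 from 90.1 to 143 FPKM in WT to 5073, 11255 and 447 FPKM in KI. The 8 Sertoli markers summed to 76.2 to 101 FPKM in WT P8, 590 to 1674 FPKM in KI and 542 to 643 FPKM in KO, but not all moved together. In KI 3 of 8 were above and 2 below every WT library, and in KO 3 were above and 0 below. Epididymal epithelium markers summed to at most 0.056 FPKM in WT P8 and to 493 to 1225 FPKM in KI and 673 to 745 FPKM in KO, at P23 to 0, 0.067 and 629.5 FPKM in WT and 1538, 0.92 and 5415 FPKM in KI, and hepatocyte markers to 3668, 1004 and 79.3 FPKM in the KO P8 libraries. The part of these cell types in the members' differences was not tested. Between WT tissues at P8, Dnajb5 was 13.9-fold, Dnaja4 5.92-fold, Dnajb4 3.66-fold and Dnajb2 2.07-fold lower in testis than in gubernaculum, the 4 of 41 members called lower, where 14.1% of all genes were. Dnajc28 and Dnajc2 were higher in testis, 2.62-fold and 2.15-fold, where 14.3% of all genes were, and these 2 calls came to 0 or 1 without WT P8 testis replicate 1 or 2 or WT P8 gubernaculum replicate 1 or 2.

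The HSP70 chaperones and exchange factors that DnaJ proteins work with were called in both directions in KI P40 testis, where 22.1% of all genes were lower and 25.6% higher. Of 8 tested HSP70 genes 1 was lower and 2 were higher. Hspa1l, a spermatid HSP70, was at 1093, 1094 and 1009 CPM in WT and 9.24, 3.05 and 4.30 CPM in KI, a log2 fold change of -7.56 ± 0.53 (SE; adjusted p = 0.000192). Hspa8, the constitutive HSC70, was higher in KI at 1044, 1190 and 1215 CPM against 409, 404 and 481 CPM. Hspa1b was higher as well, by 1.57 (log2), but its near-identical copy Hspa1a makes the split of reads between them uncertain. Hspa2, the spermatocyte HSP70, was at 2283, 2337 and 2191 CPM in WT and 953, 207 and 181 CPM in KI and was not called, while in KO P23 testis it was lower by 4.80 (log2). Of 14 exchange factors 5 were lower in KI P40 testis, Bag5 by 3.46, Hspa4l by 1.98, Bag1 by 1.96, Bag6 by 1.88 and Sil1 by 1.57 (log2), and Bag2 was higher by 2.07 (log2). Among 6 J-domain genes that carry other names Pam16, of the mitochondrial import motor, fell and none rose. In KI P8 gubernaculum, where 9.7% of all genes were lower and 14.4% higher, 2 HSP70 genes were lower (Hspa1l and Hspa8) and 3 higher (Hspa1a, Hspa1b and Hspa2), and of the exchange factors Hsph1 and Hspa4l were lower.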

How the data were processed

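RNA from 39 mouse testis and gubernaculum samples was sequenced as paired reads and, per the labels and the study's methods, aligned by the authors with HISAT2 to GRCm38. The counting program and its strand setting are not given in the sources used here. The deposited tables hold, per gene, raw read counts and FPKM made by the authors, in a first table of 27 libraries and a second of 12. Members, role lists and partner lists were chosen with earlier results of these data known. Genes were joined by Ensembl identifier. Counts were tested over all shared genes with edgeR 4.0.16 in R 4.3.3 (TMM scaling, filterByExpr with a minimum count of 10, quasi-likelihood F test, Benjamini-Hochberg adjustment), each fit holding the groups compared. The call threshold, an adjusted p below 0.01 with a change of 2-fold or more, follows the study's. Groups came from the labels, with 3 samples each. CPM with TMM factors over all libraries were used for levels between libraries, and FPKM for levels between genes and for markers. FPKM implied a different gene length in the 2 tables for 16 of 45 members, so FPKM was not compared between tables except in limma fits, for marker sums and where named. Named genes were the germ-line list, every called member or, above 12 in a direction, the 12 with the largest change, and the heat-inducible and unfolded protein response members in testis. Alternatives were DESeq2 1.42.0, library-size scaling, no low-count filter, 1 fit of all groups, a replicate block, limma 3.58.1 on log2(FPKM + 1) and leaving out each library. No share over all genes is given for counts at an unadjusted p under 0.05 or for any alternative but DESeq2 and library-size scaling. The fits were tested on simulated data. Exonic overlaps came from GENCODE M21. Where every library of a group had 3 counts or fewer, no fold is given.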

Additional observations from a re-analysis of the deposited data

Results flagged for a closer look

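The KI effect on testis differed between P40 and P8, by the interaction test of edgeR's quasi-likelihood fit, for 24 members. Values are log2 differences of the effect at P40 minus that at P8. Among germ-line genes these were -5.37 for Dnajb3, -7.77 for Dnajb7, -5.98 for Dnajb13 and -6.53 for Dnajc5g. The fitted value for Dnajb8, -10.32, rests on a WT P8 group with 2, 3 and 0 counts, so it depends on the prior count and is neither a fold nor a bound. Dnajb7 was under the low-count filter at P8 too, and its value rests on P8 libraries near the floor. Among cytosolic members they were -3.81 for Dnaja4, -2.04 for Dnajb1, -2.83 for Dnajb2, -2.51 for Dnajb4, -1.90 for Dnajb5, -2.23 for Dnajb6 and -1.14 for Dnajc7. ER members had -2.26 for Dnajb14, -1.77 for Dnajb9 and -2.26 for Dnajc18. Mitochondrial members had -1.94 for Dnajc15, -2.16 for Dnajc28 and -2.31 for Dnajc4. Members of the ribosome and nucleus had -2.44 for Dnajc2, -2.64 for Dnajc21 and -1.06 for Dnajc9. Dnajc27 had -3.53, and the positive values were 1.48 for Dnajc12 and 1.41 for Dnajc5.

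Dnajc19-ps, a pseudogene present only in the second table, had 78, 69 and 44 counts in KO P23 testis and 24, 19 and 30 in WT P23 testis, so the lowest KO library, at 44, lay above every WT library. Its reads may be shared with Dnajc19, from which a short read cannot always be told apart. It had 77, 80 and 60 counts in the P8 testis libraries labelled KO and 61, 83 and 85 in KO P8 gubernaculum.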

How the results depend on the processing

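Counts of called members are given below as lower and higher. With scaling by library size alone the higher calls became 9 in KI P40 testis, with 13 lower, 7 in KO P23 testis, 4 in KI P23 testis, 5 in the interaction and 1 in KI P8 gubernaculum, and the lower calls of WT P40 against P8 became 5. Over all genes the higher calls were 6583, 7188, 3607, 5822 and 3144 in that order, and the lower calls of WT P40 against P8 were 6900. With limma on log2(FPKM + 1) the higher calls became 4 in KI P40 testis, 5 in KO P23 testis, 1 in KI P23 testis, 6 in the P8 testis libraries labelled KO, 5 in KO P8 gubernaculum, 1 in KI P8 gubernaculum, 4 in the interaction and 0 in KI P8 testis. Its lower calls became 5 for WT P40 against P8, 3 for KI against KO at P23 and 2 in KI P23 gubernaculum. DESeq2 gave 5 lower in KI P23 gubernaculum, 1 higher in KI P23 testis and 2 higher in KI P8 testis. Over all genes its calls there were 1385 lower, 2089 higher and 1013 higher. A single fit of all groups gave 5 lower and 1 higher in KI P23 gubernaculum, 1 higher in KI P23 testis, 2 higher in KI P8 testis and 1 higher in KO P8 gubernaculum. Without the low-count filter KI P8 testis had 0 higher. The causes were not tested.

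Same-numbered libraries did not deviate together in every pair of any comparison, so the numbers were not taken as pairs. With the replicate block, lower calls became 5 in KI P23 testis and 0 in KI P23 gubernaculum, and higher calls 0 in KI P8 testis and 1 for WT testis against gubernaculum at P8.

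Leaving out 1 library at a time gave 10 to 24 lower in KI P40 testis, 1 to 12 lower and 0 to 1 higher in KI P23 testis, 0 to 2 lower in KI P23 gubernaculum, 0 in every case for KI P8 testis, 11 to 20 higher and 0 to 2 lower for KI against KO at P23, 1 to 2 lower for WT P40 against P8 (2 without WT P40 replicate 3) and 0 to 3 higher for WT testis against gubernaculum at P8. The 23 higher of WT P40 against P8 stayed at 23, and the 21 lower of KO P23 testis at 21 to 22.

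Signs turned, on the log2 scale, in the following named members. All but Dnajb14 were uncalled in the reported fits. With scaling by library size alone and with limma, in that order, KI P40 testis had 0.58 and 0.43 for Dnaja1, 0.33 and 0.36 for Dnajb11, 0.37 and 0.35 for Dnajc10 and 0.50 and 0.48 for Dnajc3. KO P23 testis had 0.24 and 0.24 for Dnajc10 and 0.21 and 0.21 for Dnajc3, KI P23 testis 0.30 and 0.15 for Dnaja1, KI P23 gubernaculum 0.098 and 0.048 for Dnajb3, KI P8 testis 0.029 and 0.014 for Dnajc10, the P8 testis libraries labelled KO 0.12 and 0.056 for Dnajc3, and the interaction 0.34 and 0.34 for Dnajc10. Library-size scaling alone turned Dnajb1 to 0.0055 in KI P23 testis and Dnaja4 to 0.010 in KI P8 testis. Limma turned Dnajb14 to 0.38 in KI P23 testis, Dnajb1 to 0.19 in the P8 testis libraries labelled KO, Dnajb3 to 0.0052 for testis against gubernaculum and Dnajc3 to 0.013 in the interaction. DESeq2 turned Dnajc3 to 0.012 in the P8 testis libraries labelled KO, Dnajc10 to -0.050 in KI P23 testis, Dnaja1 to -0.13 in KO P23 testis and Dnajb9 to 0.050 for KI against KO. The fit of all groups turned Dnajb4 to -0.036 in KI P8 testis and Dnajc10 to -0.0065 in KI P23 testis, and the replicate block turned Dnajc3 to 0.0044 in the P8 testis libraries labelled KO. Leaving out 1 library at a time gave ranges that crossed 0 for Dnajb3 in KI P23 gubernaculum (-0.69 to 0.014) and for testis against gubernaculum (-1.05 to 0.11), for Dnaja4 (-0.43 to 0.11), Dnajb4 (-0.017 to 0.098) and Dnajc10 (-0.19 to 0.033) in KI P8 testis, for Dnajc3 in the P8 testis libraries labelled KO (-0.051 to 0.11), for Dnajc10 in KI P23 testis (-0.043 to 0.082), for Dnajb9 for KI against KO (-0.057 to 0.065), and for Dnaja1 (-0.10 to 0.015) and Dnajc3 (-0.27 to 0.015) in KI P40 testis. Over all alternatives, single members gave 2305 values with the same sign and side of the threshold, 237 that lost it, 19 that passed it and 53 that turned sign. The effect of depth on the calls was not tested.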

Other observations

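In KI P40 testis replicate 1, where spermatocyte markers summed to 1398 FPKM and spermatid markers to 51.1 FPKM, Dnajb8 was at 0.694 CPM and Dnaja4 at 23.9 CPM, while Dnajb6 was at 276 CPM and Dnajb2 at 135 CPM. In the other 2 KI P40 libraries Dnajb2 was at 47.7 and 49.8 CPM. Dnajc22 had its highest group in KO P8 gubernaculum, at 2.12, 1.41 and 0.214 CPM. The same libraries held hepatocyte markers at 3668, 1004 and 79.3 FPKM, so both were highest in replicate 1 and lowest in replicate 3.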
